A study of Sus scrofa with 6 samples.

Results

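The genes described here are 10 known targets of the hypoxia-inducible factors: ANGPTL4, CA9, VEGFA, ADM, BNIP3, NDRG1, DDIT4, EGLN1, EGLN3 and P4HA1. They were measured in renal cortex of Large White pigs aged 3 months, on a porcine Agilent one-colour array with 43603 probes. The ischemia group was 3 kidneys, each from another pig, whose vessels were clamped and which stayed clamped for 60 min at 37 °C. After a cold flush with University of Wisconsin preservation fluid they were stored at 4 °C for 24 h before sampling, with no reperfusion step in the labels. The control group was 3 kidneys from other pigs, sampled and frozen as soon as they were removed. Warm ischemia, flush and cold storage were applied together in the ischemia group, so their shares in any difference cannot be told apart. The labels give no genetic modification and no drug in either group.

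Members were found by the gene name column of the array files. That column named 16 probes of 5 genes: ANGPTL4, VEGFA, ADM, EGLN1 and P4HA1. A further 11 probes carried a gene number or a full gene name that belongs to a member, which added CA9, NDRG1, DDIT4 and EGLN3 and a probe each for ANGPTL4 and EGLN1. No probe was found for BNIP3, a mitochondrial outer membrane protein that promotes removal of mitochondria. In all 27 probes of 9 genes, of 5276 genes with a symbol on the array, were followed, and 26 of them passed the filter on dim probes. The exception was an EGLN1 probe that was not well above background on any of the 6 arrays. The 10 genes were selected on these same arrays, with the ischemia minus control differences already known, so those differences are given as a description.

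Cells sense oxygen through prolyl hydroxylases of the EGLN family, which mark the alpha subunits of the hypoxia-inducible factors (HIF) for destruction as long as oxygen is present. When oxygen is short, HIF1A and EPAS1 escape that mark, join ARNT and switch on genes for blood vessel growth, anaerobic metabolism, acid handling and cell survival. EGLN1 and EGLN3 are themselves HIF targets and so form a feedback on the pathway. In kidney cortex, a tissue with high oxygen use by the proximal tubule, HIF targets are widely used as readouts of low oxygen. 

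Probes of ANGPTL4 and CA9 are shown because these genes had the largest differences and because pairs of their probes cover the same stretch of RNA, and probes of VEGFA because they cover different parts of it. The brightest CA9 probe and A_72_P443769 of VEGFA are not printed. All are 60 bases long and are given 5′ to 3′ as the array files list them. Capitals mark the longest run that a probe shares with another probe of the same gene.
ANGPTL4 A_72_P165341: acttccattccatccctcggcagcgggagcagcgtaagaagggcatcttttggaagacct
ANGPTL4 A_72_P718758: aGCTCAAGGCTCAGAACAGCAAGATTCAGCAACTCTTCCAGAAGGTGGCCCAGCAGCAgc
ANGPTL4 A_72_P359633: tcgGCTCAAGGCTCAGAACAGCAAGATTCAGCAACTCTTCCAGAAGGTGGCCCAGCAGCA
CA9 A_72_P501165: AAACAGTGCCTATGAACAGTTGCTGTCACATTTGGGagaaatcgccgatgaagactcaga
CA9 A_72_P009767: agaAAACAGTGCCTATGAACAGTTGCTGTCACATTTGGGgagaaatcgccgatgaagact
VEGFA A_72_P414353: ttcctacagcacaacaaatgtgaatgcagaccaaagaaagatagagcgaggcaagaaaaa
VEGFA A_72_P441494: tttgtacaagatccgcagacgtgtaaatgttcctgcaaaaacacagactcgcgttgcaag

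ANGPTL4 probes A_72_P718758 and A_72_P359633 overlap by 58 bases, with the single substitution A1G, counted from 1 at the 5′ end of A_72_P718758. CA9 probes A_72_P501165 and A_72_P009767 match over 56 bases once 1 base is taken out of the second, directly after the shared run of 36 bases. The overlapping probes of a gene are therefore not independent measurements. The VEGFA probes share no such run. In human VEGFA the stretch like A_72_P441494 belongs to the heparin-binding part, which the short secreted form of the protein lacks.

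Values are log2 of the processed spot signal minus the 75th percentile of the same array, so that 0 is the signal at that percentile. A difference is ischemia minus control on this scale, with the standard error (SE) from limma and 3 kidneys per group. A gene is represented by its brightest tested probe, and levels of different probes cannot be set against each other. Each slide carried 1 ischemia and 1 control array, and their difference is given as the value within that slide. Every ischemia array was at position 3 of its slide and every control array at position 4, which leaves group and position impossible to tell apart.

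ANGPTL4 had the largest difference of the 9 genes, CA9 the second largest, and the other 7 had groups that overlapped. Of the 26 tested probes, 22 were higher in ischemia kidneys and 4 lower, with a median difference of 0.23, against a median of -0.04 over all 25017 tested probes, of which 44.2% were higher. None of the 26 passed the limma adjusted p of 0.05, a threshold that 0.004% of all probes passed. At an unadjusted p under 0.05, 6 member probes were higher and 0 were lower, where 2.98% of all probes were higher and 3.32% lower. These 6 were the 3 ANGPTL4 and 3 CA9 probes, with an overlapping pair in each gene. At that threshold 2 of the 9 genes were higher and 0 lower, where 3.76% of all genes were higher and 2.91% lower. The members were chosen with these differences known, so the counts are a description. The ischemia values all lay above the control values for 7 member probes, and for 5.88% of all probes, and lay below them for 0 member probes and for 5.03% of all probes. For the 16 probes found by gene name alone, 13 were higher and 3 lower, the median difference was 0.21, and 2 had groups that did not overlap. By gene, 7 of the 9 were higher and 2 lower, with a median of 0.13, against 0.02 over the 4120 genes with a symbol, of which 52.7% were higher. The ischemia values lay above the control values for 2 of the 9 genes and below them for 0, where the shares over all genes were 7.62% and 4.17%.

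**Figure D1:**
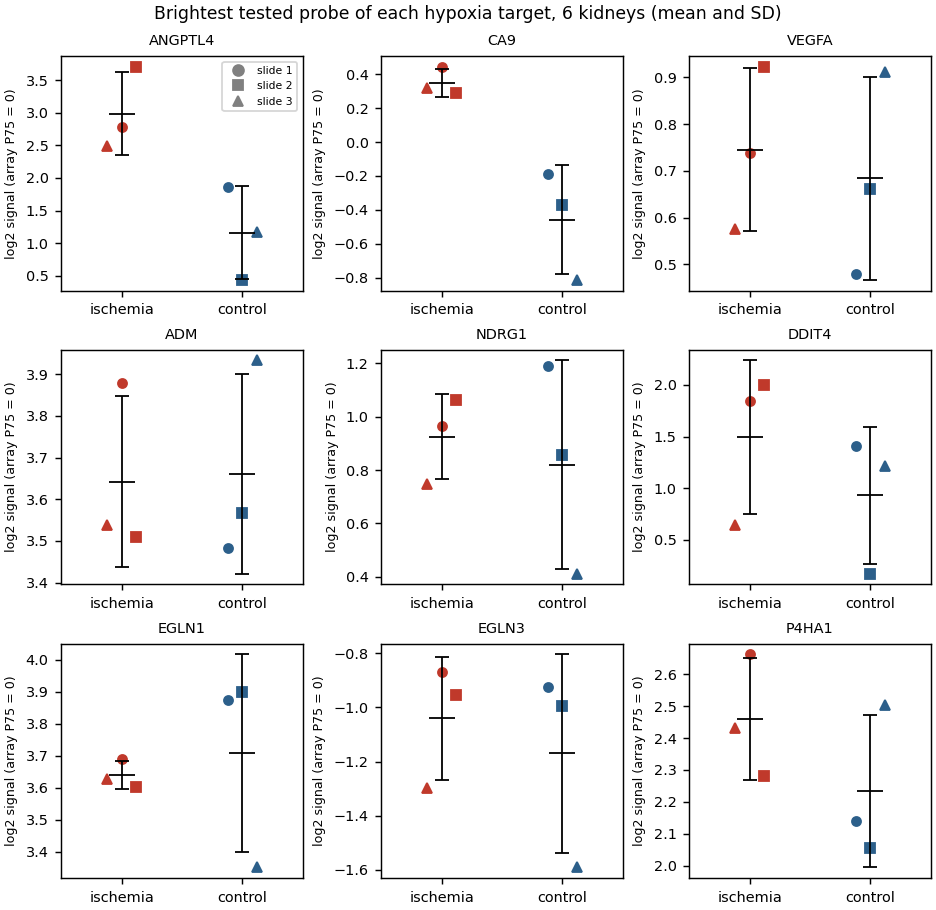
Log2 signal of the brightest tested probe of each of the 9 genes, relative to the 75th percentile (P75) of each array, in 3 ischemia and 3 control kidneys; marker shape gives the slide, and black bars give the mean and SD. The groups do not overlap for ANGPTL4 and CA9, and they overlap for the other 7 genes.

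The array holds markers of the cells that cortex contains, and 10 of 11 proximal tubule markers with a probe were well above background on all 6 arrays. So were both podocyte markers with a probe (WT1 and PODXL) and 6 of 6 endothelial markers. All 10 tested proximal tubule markers were lower in ischemia kidneys by signal, with a median difference of -0.68, and 0 passed the limma adjusted p. Their summed signal, in units of the 75th percentile, was 1027 to 1191 in ischemia kidneys and 1102 to 1607 in control kidneys. In whole tissue, fewer cells of a type and less RNA per cell cannot be told apart, and the part of this shift in the values below was not tested.

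ANGPTL4 encodes a secreted protein that inhibits lipoprotein lipase and is a target of both HIF and the fatty acid sensing PPAR receptors. Its brightest probe read 2.48, 2.77 and 3.71 in ischemia kidneys 1, 2 and 3, against 1.86, 0.44 and 1.17 in control kidneys 1, 2 and 3. Every ischemia kidney lay above every control kidney, ischemia kidney 3 was the highest and control kidney 2 the lowest. The difference was 1.83 ± 0.45 (SE), a 3.55-fold higher signal in ischemia kidneys, and it ranked 60 of 25017 from the highest. Group means were 2.99 ± 0.64 in ischemia kidneys and 1.16 ± 0.71 in control kidneys (SD, n = 3 each).

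The other ANGPTL4 probes gave the same picture at a lower signal. A_72_P718758 read 0.46, 1.06 and 1.86 in ischemia kidneys and 0.17, -1.20 and -0.69 in control kidneys, a difference of 1.70 ± 0.46. A_72_P359633 read 0.19, 0.85 and 1.70 in ischemia kidneys and 0.02, -1.53 and -1.04 in control kidneys, a difference of 1.77 ± 0.50. In both, ischemia kidney 1 and control kidney 1 lay close together while the rest of the groups were far apart. Within slides the brightest probe differed by 0.91 on slide 1, 3.27 on slide 2 and 1.31 on slide 3, so the sign was the same on each slide and the size was not. Without ischemia kidney 3 the difference was 1.47, and without control kidney 2 it was also 1.47. Adipocytes express much ANGPTL4. Of their 6 markers, PLIN1 was well above background on no array and ADIPOQ on 1 array per group at most, while the summed signal of the 4 tested markers was 7.68 to 10.5 in ischemia kidneys and 6.70 to 8.26 in control kidneys.

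CA9 is a carbonic anhydrase at the cell surface that turns carbon dioxide and water into bicarbonate and acid, and is among the most used markers of HIF activity. The brightest probe, A_72_P494640, read 0.32, 0.44 and 0.29 in ischemia kidneys, against -0.19, -0.37 and -0.81 in control kidneys. The ischemia kidneys were tightly grouped and lay above all control kidneys, which were more spread. The difference was 0.81 ± 0.22, a 1.75-fold higher signal, with group means of 0.35 ± 0.08 in ischemia kidneys and -0.46 ± 0.32 in control kidneys (SD, n = 3 each). Within slides it was 0.63, 0.66 and 1.13 on slides 1, 2 and 3.

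The 2 overlapping CA9 probes were dimmer and had the same order of groups. A_72_P501165 read -1.66, -1.42 and -1.64 in ischemia kidneys and -1.92, -2.21 and -3.08 in control kidneys, a difference of 0.83 ± 0.32. A_72_P009767, the one with the extra base, read -1.94, -1.73 and -1.79 in ischemia kidneys and -2.15, -2.62 and -2.86 in control kidneys, a difference of 0.72 ± 0.24. Control kidney 3 was the lowest array for all 3 CA9 probes. Without it the difference of the brightest probe was 0.63.

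VEGFA, the main growth factor for blood vessels and a classical HIF target, had overlapping groups by all 3 of its probes. The brightest, A_72_P414353, read 0.58, 0.74 and 0.92 in ischemia kidneys and 0.48, 0.66 and 0.91 in control kidneys. Both groups covered nearly the same range. The difference was 0.06 ± 0.21, and within slides it was 0.26, 0.26 and -0.34.

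A_72_P441494, in the heparin-binding stretch, read -0.80, -0.76 and -0.45 in ischemia kidneys and -0.91, -1.04 and -0.79 in control kidneys, a difference of 0.25 ± 0.20. A_72_P443769 read -0.65, -0.47 and -0.13 in ischemia kidneys and -0.46, -0.57 and -1.03 in control kidneys, a difference of 0.27 ± 0.24. In both, ischemia kidney 3 was the highest array and ischemia kidney 1 lay within the control range.

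ADM, a peptide that widens blood vessels, had overlapping groups by its only probe. That probe read 3.54, 3.88 and 3.51 in ischemia kidneys and 3.48, 3.57 and 3.93 in control kidneys, with a difference of -0.02 ± 0.22. The highest array was a control kidney and the lowest was too. Within slides the difference was 0.39, -0.06 and -0.39.

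DDIT4 restrains growth signalling through mTORC1 and responds to HIF, glucocorticoids and the stress factor ATF4. Its brighter probe read 0.64, 1.84 and 2.00 in ischemia kidneys and 1.41, 0.17 and 1.21 in control kidneys. Ischemia kidneys 2 and 3 lay above all control kidneys, whereas ischemia kidney 1 lay below 2 of the 3. The difference was 0.56 ± 0.46, and within slides it was 0.43, 1.82 and -0.57. The dimmer probe read -2.35, -1.29 and -1.22 in ischemia kidneys and -1.80, -2.80 and -2.07 in control kidneys, a difference of 0.60 ± 0.39, with the same arrays high and low. Single arrays set its size: the brighter probe's difference was 0.99 without ischemia kidney 1, 0.31 without ischemia kidney 3 and 0.18 without control kidney 2.

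NDRG1 is a stress-responsive cytoplasmic protein named for its link with differentiation, and its 3 probes did not run the same way. The brightest read 0.75, 0.97 and 1.06 in ischemia kidneys and 1.19, 0.86 and 0.41 in control kidneys, a difference of 0.11 ± 0.25. A_72_P534937 read -0.88, -0.79 and -0.57 in ischemia kidneys and -0.95, -1.10 and -1.12 in control kidneys, so that the groups did not overlap, by a small margin, and the difference was 0.31 ± 0.19. A_72_P154306, whose description only likens it to the bovine gene, had a difference of -0.38 ± 0.33 with overlapping groups.

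Of the oxygen sensors, EGLN1 is the main prolyl hydroxylase under normal oxygen and EGLN3 the one most induced by low oxygen in many cell types. The brightest EGLN1 probe read 3.63, 3.69 and 3.60 in ischemia kidneys and 3.87, 3.90 and 3.35 in control kidneys, a difference of -0.07 ± 0.22. The other tested EGLN1 probes had differences of 0.11 ± 0.19 and -0.07 ± 0.23. The ischemia values of the brightest probe were within a narrow band inside the control range. EGLN3 read -1.30, -0.87 and -0.95 in ischemia kidneys and -0.92, -0.996 and -1.59 in control kidneys, a difference of 0.13 ± 0.25 with overlapping groups.

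P4HA1, the catalytic subunit of the collagen prolyl 4-hydroxylase, was measured by 7 probes, all higher in ischemia kidneys, with differences of 0.13 to 0.24 and SEs of 0.22 to 0.26. The brightest, A_72_P302594, read 2.43, 2.66 and 2.28 in ischemia kidneys and 2.14, 2.06 and 2.50 in control kidneys, a difference of 0.23 ± 0.22 with overlapping groups. It overlaps the next brightest, A_72_P445003, by 59 bases with the single substitution C4A, counted from 1 at the 5′ end of A_72_P302594. Both had their largest within-slide difference on slide 1 (0.52 and 0.49) and a negative one on slide 3 (-0.07 and -0.13). The other 5 probes had their largest on slide 3 (0.45 to 0.90) and a negative one on slide 2 (-0.38 to -0.10), so the probes of this gene followed 2 patterns across arrays.

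**Figure D2:**
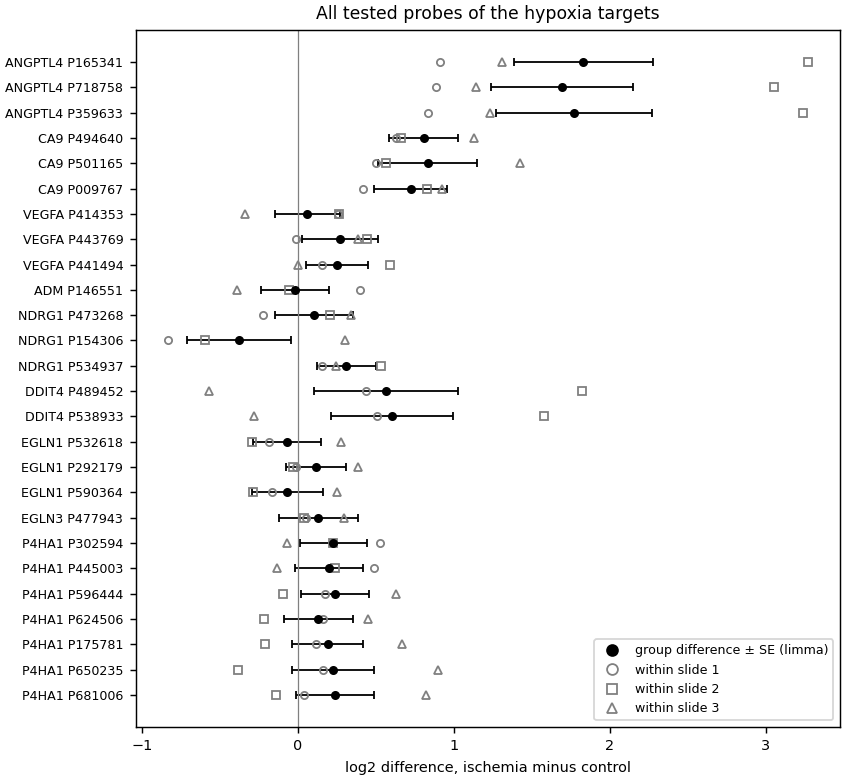
Difference of ischemia minus control on the log2 scale for the 26 tested probes of the 9 genes, black with the limma standard error, and the difference within each slide, open grey. All 3 ANGPTL4 and all 3 CA9 probes are above 0 on each slide, and the P4HA1 and DDIT4 probes change sign between slides.

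The scale between arrays moved the small differences. With each array centred on its median, the median over all genes was 0.17, and with the authors' deposited table it was 0.20, against 0.02 on the scale used here. The probes at an unadjusted p under 0.05 were 745 higher and 830 lower here, 971 and 491 with median centring, 979 and 703 with quantile normalization, 944 and 699 with normexp and quantile normalization, and 2394 and 237 in the deposited table. ADM had a difference of 0.13 with median centring and 0.27 in the deposited table, and EGLN1 one of 0.08 with median centring, so neither sign was stable. Relative to the median over all genes, ANGPTL4 was at 1.69 to 1.81 and CA9 at 0.63 to 0.79 over the scalings in which their brightest probe was present. The deposited table held 14 member probes of all 9 genes, of which 13 were higher in ischemia kidneys, as were 67.3% of all its probes. The groups did not overlap for 7 of the 14, all higher in ischemia kidneys, where 15.7% of all its probes lay wholly above and 2.26% wholly below the control kidneys. These 7 were the ANGPTL4 probes (1.90 and 1.79), the CA9 probe A_72_P501165 (0.67), VEGFA A_72_P443769 (0.42), NDRG1 A_72_P473268 (0.40) and EGLN1 A_72_P292179 and A_72_P590364 (0.38 and 0.18). The last 4 had overlapping groups on the scale used here.

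The remainder of the pathway was read from 13 lists of genes that share a pathway, a regulator or a partner with a member. Of their 105 tested genes, 62 were higher and 43 lower, and none passed the limma adjusted p of 0.05, which 0% of the 4120 genes with a symbol passed. At an unadjusted p under 0.05, 7 were higher and 6 lower, where 3.76% of all genes were higher and 2.91% lower. The 7 include the close relatives CYP4A21 and CYP4A24. The lists were chosen with earlier results of these data known, so these counts are a description.

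The machinery that controls HIF had 8 tested genes, 7 higher and 1 lower, with a median difference of 0.18. EPAS1, the HIF alpha subunit of the cells that make erythropoietin, read 2.18, 1.93 and 1.78 in ischemia kidneys and 1.88, 1.49 and 1.04 in control kidneys, a difference of 0.50 ± 0.26 (limma adjusted p = 0.872). Its second probe differed by 0.14 ± 0.18. HIF1A differed by 0.14 ± 0.23, and HIF1AN, which hydroxylates the alpha subunits at another site, by 0.42 ± 0.30. CITED2, a HIF target that competes for the coactivator, was at 0.20 ± 0.19. ARNT2, a dim relative of ARNT, was at -0.58 ± 0.24 (limma adjusted p = 0.784). No probe was named for VHL, which binds hydroxylated HIF, or for EGLN2.

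Other HIF targets outside glycolysis had 24 tested genes, 15 higher and 9 lower, with a median of 0.14. WSB1, a ubiquitin ligase subunit, read 3.19, 3.47 and 3.90 in ischemia kidneys and 2.67, 2.58 and 2.77 in control kidneys, a difference of 0.84 ± 0.23 (limma adjusted p = 0.625). LOX, which cross-links collagen, was at 0.78 ± 0.27 (limma adjusted p = 0.725), and both genes had groups that did not overlap. CP, the copper-carrying ferroxidase, was at 1.11 ± 0.42 (limma adjusted p = 0.751) with overlapping groups. Its value in ischemia kidney 3, 2.82, lay within the control range of 2.58 to 2.85.

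EPO, the hormone of red cell production and the textbook HIF target of the kidney, had the lowest difference of all genes in the lists. It read -3.36, -4.52 and -4.33 in ischemia kidneys and -1.38, 0.29 and -0.30 in control kidneys, a difference of -3.61 (limma adjusted p = 0.267). It was well above background on 1 of the 3 ischemia arrays and on all 3 control arrays, so it met the filter through the control kidneys, and its ischemia values are mostly at background. Over the alternatives its difference ran from -4.07 to -1.86 and its limma adjusted p from 0.00834, with median centring, to 0.87. No other pathway gene was under 0.05 in any alternative run, and this value of EPO is not read as a call.

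Glycolytic HIF targets had differences near 0: 6 of 13 tested genes were higher and 7 lower, with a median of -0.02 and 0 at an unadjusted p under 0.05 in either direction. PGK1 was at -0.15 ± 0.26, TPI1 at 0.21 ± 0.31, PGAM1 at 0.23 ± 0.35 and PFKFB4 at -0.21 ± 0.29. PFKFB4 was dim, well above background on 1 ischemia array and 2 control arrays.

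**Figure D3:**
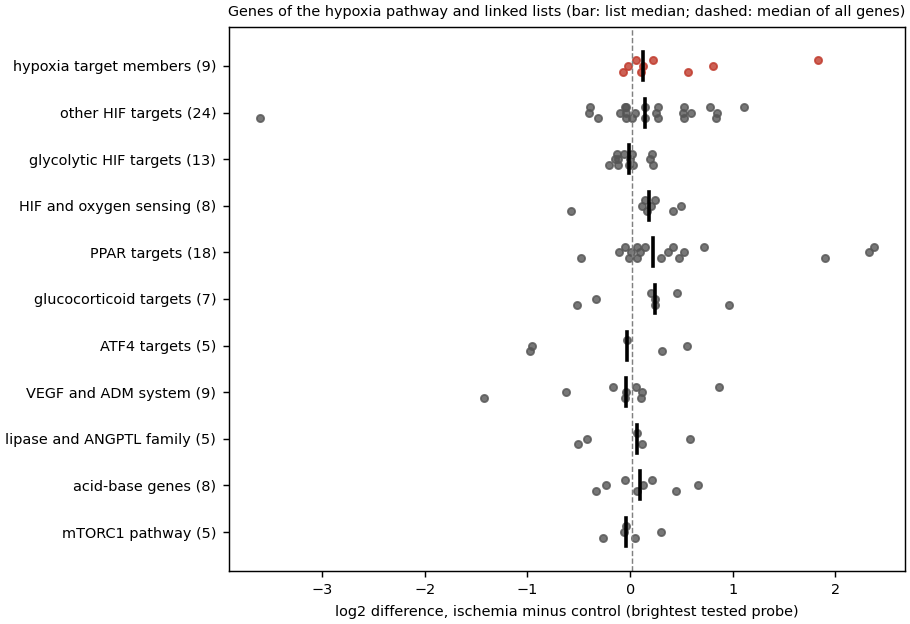
Difference of ischemia minus control on the log2 scale for the brightest tested probe of each gene in the members (red) and in 10 of the pathway lists (grey), with the number of tested genes in brackets, the list median as a bar and the median of all genes dashed. The members' median of 0.13 lies close to the other medians, ANGPTL4 at 1.83 is the farthest member, and EPO at -3.61 is the lowest gene plotted.

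ANGPTL4 is a target of the PPAR receptors as well, and their targets had 18 tested genes, 14 higher and 4 lower, with a median of 0.22. PDK4, which shuts glucose carbon out of mitochondria, read 5.63, 6.38 and 7.78 in ischemia kidneys and 4.47, 3.87 and 5.75 in control kidneys, a difference of 1.90 ± 0.65 (limma adjusted p = 0.72). Like ANGPTL4 it was highest in ischemia kidney 3 and lowest in control kidney 2, and within slides it differed by 1.91, 3.91 and -0.12. CYP4A21, a fatty acid hydroxylase of the cytochrome P450 family, read 9.26, 9.41 and 9.10 in ischemia kidneys and 6.55, 8.79 and 5.46 in control kidneys, a difference of 2.32 ± 0.75 (limma adjusted p = 0.683). Here control kidney 2 was the highest control kidney, not the lowest. CYP4A24, a close relative that a probe for CYP4A21 may also bind, was at 2.37 ± 0.79, and CD36, a fatty acid carrier, at 0.42 ± 0.25.

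Lipoprotein lipase, the enzyme that ANGPTL4 inhibits, is encoded by LPL, which was at 0.06 ± 0.42 with overlapping groups. Of 5 tested genes of the lipase system and the ANGPTL family, 3 were higher and 2 lower. LIPC was at 0.58 ± 0.29, ANGPTL2 at 0.11 ± 0.31, ANGPTL6 at -0.42 ± 0.26 and APOC3 at -0.51 ± 0.84. LIPC was dim, well above background on 2 ischemia arrays and 1 control array.

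DDIT4 has other regulators as well, whose targets lay in both directions. Of 7 tested glucocorticoid targets, 5 were higher and 2 lower, with a median of 0.24. CEBPD, a transcription factor, read 3.78, 4.72 and 4.52 in ischemia kidneys and 3.68, 3.04 and 3.42 in control kidneys, a difference of 0.96 ± 0.31 (limma adjusted p = 0.68) with groups that did not overlap. KLF15 was at 0.46 ± 0.29, KLF9 at -0.33 ± 0.34 and MT1A at -0.52 ± 0.43. In CEBPD, KLF15 and KLF9, ischemia kidney 1 was the lowest ischemia array, as it was in DDIT4. That kidney was also the lowest in ANGPTL4, PDK4 and the ATF4 targets PSAT1, PHGDH and DDIT3, but not in the other tested ATF4 targets.

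Of 5 tested ATF4 targets 2 were higher and 3 lower, with a median of -0.03. PSAT1 and PHGDH, enzymes of serine synthesis, were at -0.95 ± 0.32 and -0.98 ± 0.39 (limma adjusted p = 0.719 and 0.766), while DDIT3 was at 0.56 ± 0.28 and VLDLR at 0.31 ± 0.34. Of 5 tested genes of the mTORC1 pathway, 2 were higher and 3 lower. MTOR was at 0.30 ± 0.19, DEPTOR at -0.26 ± 0.31, RPS6KB1 at -0.06 ± 0.22 and EIF4EBP1 at 0.05 ± 0.20.

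**Figure D4:**
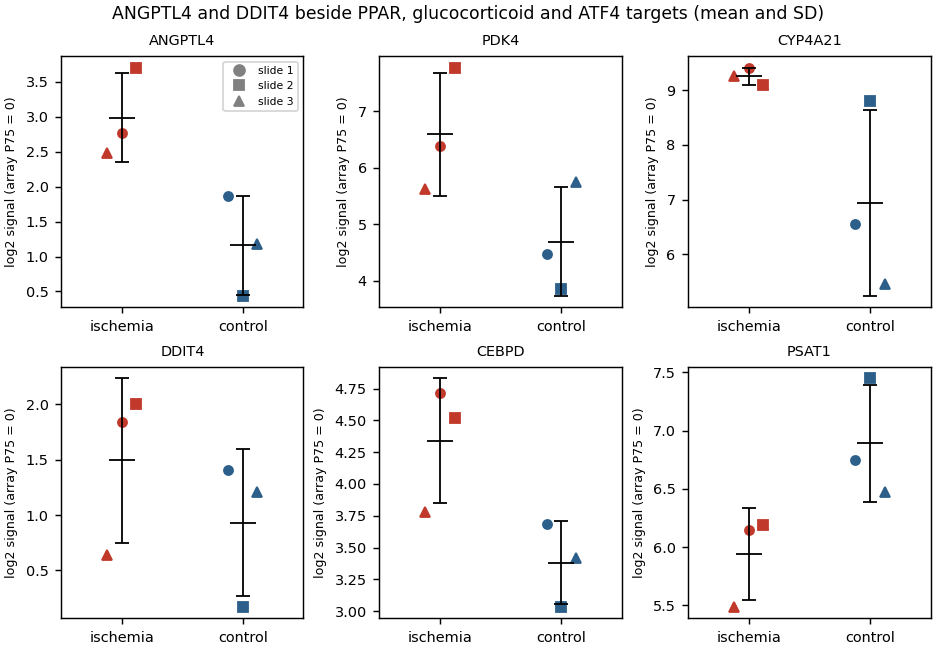
Log2 signal relative to the 75th percentile (P75) of each array for ANGPTL4, the PPAR targets PDK4 and CYP4A21, DDIT4, the glucocorticoid target CEBPD and the ATF4 target PSAT1, in 3 ischemia and 3 control kidneys; marker shape gives the slide, and black bars give the mean and SD. Ischemia kidney 1, the triangle, is the lowest ischemia array for ANGPTL4, PDK4, DDIT4, CEBPD and PSAT1.

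The receptors for VEGF and adrenomedullin, with the other ligands of those receptors, had 9 tested genes, 4 higher and 5 lower, with a median of -0.04. NRP1, a co-receptor that binds the heparin-binding forms of VEGFA, read -2.40, -2.72 and -1.92 in ischemia kidneys and -1.45, -0.82 and -0.51 in control kidneys. The groups did not overlap and the difference was -1.42 ± 0.32 (limma adjusted p = 0.501). VEGFD was at 0.86 ± 0.38 (limma adjusted p = 0.808), and the receptor KDR at 0.11 ± 0.24. FLT1, the decoy-like VEGF receptor, was at -0.04 ± 0.18 by its brightest probe and at 0.33 and -0.28 by its other probes, which disagreed in sign. CALCRL, the adrenomedullin receptor, was at -0.62 ± 0.31, and its dimmer probes at -0.28 and 0.09. Of 6 tested endothelial markers 5 were higher, and their summed signal was 22.8 to 34.8 in ischemia kidneys and 26.1 to 27.7 in control kidneys.

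Carbonic anhydrases and acid-base transporters around CA9 had 8 tested genes, 5 higher and 3 lower, with a median of 0.10. SLC16A1, which carries lactate, was at 0.66 ± 0.48, SLC4A1 at 0.44 ± 0.47, SLC9A3 at -0.23 ± 0.23 and CA6 at -0.34 ± 0.25, all with overlapping groups. All 3 tested genes of collagen hydroxylation around P4HA1 were higher by small amounts, PLOD2 at 0.27 ± 0.22, P3H3 at 0.22 ± 0.22 and P4HA2 at 0.02 ± 0.26. In the NDRG family NDRG2 was at -0.03 ± 0.23. Of 5 tested mitophagy and autophagy genes, the set that BNIP3 would belong to, 1 was higher and 4 lower. BECN1, which starts autophagosomes, was at -0.49 ± 0.20 (limma adjusted p = 0.768), BCL2L1 at -0.30 ± 0.22 and OPTN at -0.14 ± 0.20. BCL2L1 was well above background on 1 ischemia array and on 3 control arrays, so it met the filter through the control kidneys.

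The genes whose signal followed ANGPTL4, CA9 and VEGFA most closely over the 6 arrays were taken from 4118 genes with a symbol, as a description over few arrays that share the group difference and the slides. For ANGPTL4 they were ARG2, the mitochondrial arginase, with a Pearson r of 0.998, DCAF4, CPLX3, PRM2 and CXCL10, and 44 genes had an r over 0.9. For CA9 they were C1QA, a complement subunit, with an r of 0.987, C3H16orf59, SRSF2, SUSD6 and ETS2, and 80 genes had an r over 0.9. For VEGFA they were MED14, a Mediator subunit, with an r of 0.987, PTGS2, MAPK8, AGT and LRRK2, and 19 genes had an r over 0.9. No gene of the 13 lists was among these 15. ARG2 differed by 1.43 and C1QA by 0.59, while MED14 differed by 0.06.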

How the data were processed

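Total RNA of renal cortex from 3 ischemia and 3 control kidneys was labelled with Cy3 and hybridised to 1 array per kidney, per the labels. The deposited scanner files hold spot intensity, background-subtracted within each array by Agilent Feature Extraction, per the file headers (version 10.10.1.1; the submitters' processing notes give 11.5.1.1). The value table the authors deposited holds log2 values; its normalization and centring between arrays are not given in the sources used here, so it served as an alternative (column medians 5.91 to 5.99).

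Control spots and outlier spots were left out, signals were scaled to the 75th percentile of each array and put on a log2 scale, and probes well above background on at least 3 of 6 arrays, with a value on at least 5, were tested: 25017 of 43603. The 75th percentile of the signal was 418 for ischemia kidney 1 and 246 to 293 for the other kidneys. No spot was saturated, and the number of arrays limits the precision. Probes were named from gene names, gene numbers, accessions and descriptions, updated with a RefSeq gene table of assembly Sscrofa11.1 (12067 with a symbol, 31536 without). Ischemia was tested against control over all 6 arrays by limma's moderated two-sided test (limma 3.58.1, R 4.3.3), with Benjamini-Hochberg adjustment over all tested probes. The procedure was tested on simulated data, where it recovered 1.70% of 2-fold and 52.80% of 4-fold changes at a limma adjusted p under 0.05. The text names all members, up to 4 genes of each list by smallest p, 8 genes chosen for their role, and the 5 genes most like ANGPTL4, CA9 and VEGFA. The value of 1 gene that this rule would name is not reported here. The members and lists were chosen with earlier results of these data known. The labels number the samples 1 to 3 in each group, which does not pair them (kidneys came from different pigs), so slide and number served as blocks only in alternatives. Array correlations were 0.969 to 0.984, and no array duplicated another.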

Additional observations from a re-analysis of the deposited data

How the results depend on the processing

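The count of probes past the limma adjusted p of 0.05, 1 here, was 11 with median centring, 0 with quantile normalization, 3 with normexp and quantile normalization, 3 in the deposited table, 0 without a filter on dim probes, 3 with probes well above background on all arrays, 0 with slide as a block and 0 with sample number as a replicate block, and 0 to 1 with an array left out. The cause was not tested. Same-numbered kidneys had correlations of deviations from the group mean of -0.35 to -0.05, while arrays of 1 slide had 0.10 to 0.34. Such deviations sum to 0 within each group, so the correlations of the pairings depend on each other. They therefore cannot decide whether the numbers pair kidneys. No member was called here or with the number block, so the block had no member call to remove. At an unadjusted p under 0.05, 745 probes were higher and 830 lower here, against 971 and 491 with median centring, 2394 and 237 in the deposited table, 907 and 1406 with slide as a block, and 739 and 2195 without control kidney 1. The number of member genes higher, 7 of 9 here, was 5 to 9 over the alternatives, the lowest in the deposited table, which held the brightest probe of only 5 genes. By the brightest probe, ANGPTL4 ran from 1.47 to 2.18, CA9 from 0.63 to 0.96, P4HA1 from 0.12 to 0.38 and DDIT4 from 0.18 to 0.99, all above 0. By that probe, VEGFA (-0.04 to 0.21), ADM (-0.14 to 0.27, the highest in the deposited table), NDRG1 (-0.10 to 0.40), EGLN1 (-0.25 to 0.08) and EGLN3 (-0.08 to 0.35) took both signs. Dimmer probes could differ: P4HA1 A_72_P624506 ran from -0.04 to 0.28. VEGFA A_72_P441494 (0.14 to 0.40) and A_72_P443769 (0.10 to 0.42) stayed above 0. NDRG1 A_72_P154306 (-0.69 to -0.12) stayed below 0 and A_72_P534937 (0.22 to 0.46) above it. The number of pathway genes higher, 62 here, was 54 to 83. With 3 kidneys a group, the SE of a member probe was 0.19 to 0.50, and the adjusted threshold can miss differences of any size seen in the members.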
